A study of Homo sapiens with 25 samples.

Results

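The 48 genes described here encode proteins that build ribosomes: RNA polymerase I and its factors (8 genes), nucleolar chaperones and scaffold proteins (6), the core proteins of box C/D (3) and box H/ACA (4) small nucleolar RNPs, and assembly factors of the small subunit (13) and of the large subunit (14). They were taken by symbol from a list of nucleolar, RNA polymerase I and rRNA-processing genes. The rule that lists them uses no measured value, but the list was chosen with earlier results of these data known. All 48 were found among the 31919 genes of the expression table and are among the 18799 genes tested, so none was lost to the filter on low values. RNA was sequenced in bulk from DND-41, an established human T-cell acute lymphoblastic leukaemia line, kept in medium with its normal amount of the essential amino acid histidine or with less. The day 6 libraries were 3 without histidine, 3 at 12.5%, 2 at 25%, 3 at 50% and 3 at 100% of the normal amount, and the day 9 libraries were 3 at 12.5%, 3 at 25%, 2 at 50% and 3 at 100%. All groups are 1 cell line and differ, as far as the labels say, in histidine and day alone. The 100% libraries of the same day are the controls. One no-histidine library, replicate 1, is titled day 6 and carries a time label of day 9, and it was kept at day 6. The design text of the series names days 3 and 6 where the sample labels name days 6 and 9, and the days given here are those of the sample labels. The labels do not say that replicates came from separate cultures, and the p-values below can speak for no more than the variation among these libraries, part of which may be technical.

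Ribosome biogenesis starts in the nucleolus, where RNA polymerase I copies the rDNA repeats into a long precursor rRNA. Small nucleolar RNPs guide methylation and pseudouridylation of that precursor, the small subunit processome cuts out and folds its 18S part, and a second set of factors, among them the PeBoW complex of PES1, BOP1 and WDR12, matures the 5.8S and 28S parts. The process takes up a large share of a growing cell's resources, is turned down when amino acids run short, and is driven in proliferating and leukaemic cells by the transcription factor MYC, which binds the E-box CACGTG.

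Values are normalized counts per gene, made by the authors with DESeq2, in which each library is divided by its own size factor. They give a gene's part of a library, so a change in RNA per cell is not visible, and a change in some of the cells and a smaller one in all cells cannot be told apart. Totals were 13.6 M to 16.1 M normalized counts per library, and the read depth behind them is unknown. The T-lineage markers CD3D, CD3E, CD3G, CD7, LCK, TLX3 and NOTCH1 were each above 3176 in all 25 libraries. Of the other T-lineage markers looked at, CD1A was at 466 to 802 and CD5 at 70.6 to 155, while CD2 (at most 37.6) and PTCRA (at most 8.14) were low. The B-lineage gene CD79A was high (9400.4 to 22251). Libraries stood apart in epithelial keratins and in 5.8S rRNA. The summed epithelial keratins KRT8, KRT18 and KRT19 were above 100 in 6 libraries, namely replicates 1 and 2 at 100% and at 50% on day 6 and replicates 1 and 3 at 25% on day 9 (up to 1406), and at most 60.3 in the others. Counts below are therefore also given without these 6. The level of 5.8S rRNA was 74.8 to 88.2 in the 12.5% libraries of day 6 and 95.8 to 1181 in the others, with the highest in 100% replicate 3 on day 6 (1181) and 25% replicate 3 on day 9 (882).

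Promoter sequence is shown for members that changed and carry the MYC motif near their start site. RefSeq promoter windows on GRCh38.p14, from 250 bases before to 50 bases after the start, were matched by symbol for 39 of the 48 genes. The 39 do not include RRS1, NOP58, DDX18, POLR1E, NOLC1, BOP1, RRP1B, TCOF1 or RRP12. The motif CACGTG, which reads the same on both strands, was in the windows of 18 of the 39 (46.2%), against 32 of 126 (25.4%) in a wider list of other ribosome biogenesis genes, 1385 of 11453 tested genes (12.1%) and 2396 of 27305 genes with a window (8.77%). It lay within 50 bases of the start in 17 of the 39 members (43.6%), against 25 of the 126 of the wider list (19.8%) and 575 of the 11453 tested genes (5.02%). For 10 members RefSeq gives more than 1 window, and a match in any of them was counted, as for the other genes. The following stretches run from 40 bases before to 25 bases after the start, 5′ to 3′ on the gene's strand, with CACGTG in capitals.
FBL: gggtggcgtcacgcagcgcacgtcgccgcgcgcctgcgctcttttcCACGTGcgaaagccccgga
PES1: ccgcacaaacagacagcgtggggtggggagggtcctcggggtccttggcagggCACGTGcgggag
GNL3: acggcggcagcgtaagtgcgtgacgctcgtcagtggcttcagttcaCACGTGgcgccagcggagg
RRP9: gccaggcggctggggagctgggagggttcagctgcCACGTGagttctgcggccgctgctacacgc
WDR43: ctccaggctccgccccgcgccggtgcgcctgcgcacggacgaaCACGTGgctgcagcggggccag
MRTO4: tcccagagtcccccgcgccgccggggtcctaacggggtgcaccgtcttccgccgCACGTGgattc
UTP4: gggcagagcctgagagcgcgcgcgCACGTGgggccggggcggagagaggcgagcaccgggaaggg
NAT10: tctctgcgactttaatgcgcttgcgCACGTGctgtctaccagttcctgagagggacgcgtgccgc
Their positions are FBL at chr19:39846355-39846419 on the minus strand, PES1 at chr22:30591886-30591950 on the minus strand, GNL3 at chr3:52685992-52686056 on the plus strand, RRP9 at chr3:51941880-51941944 on the minus strand, WDR43 at chr2:28894627-28894691 on the plus strand, MRTO4 at chr1:19251765-19251829 on the plus strand, UTP4 at chr16:69132609-69132673 on the plus strand and NAT10 at chr11:34105589-34105653 on the plus strand. FBL is the rRNA 2′-O-methyltransferase, GNL3 (nucleostemin) a nucleolar GTPase, RRP9 a protein of the U3 snoRNP, MRTO4 a large subunit factor related to ribosomal protein P0, UTP4 and WDR43 parts of the small subunit processome and NAT10 the rRNA cytidine acetyltransferase. A match describes letters in the window and does not show binding. In these 8 genes the motif begins between base -16 and base 15, counted from the start site.

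Across the histidine levels of day 6 the 48 genes did not change in step with the dose. Without histidine most of the genes that changed were above 100%, at 12.5% and 25% most were below it, and at 50% none passed the test. The group mean was lowest at 25% for 28 of the 48 genes and highest without histidine for 23. On day 9, which has no library without histidine, the mean was lowest at 25% for 24 and at 12.5% for 13, and highest at 100% for 25. These counts were not worked out over all tested genes, so whether the 48 differ from them here is unknown. The 25% mean of day 6 rests on 2 libraries. In what follows, rose and fell mean an adjusted p under 0.05 in limma's moderated test over all 18799 genes, on the log2(normalized count + 1) scale. The day 6 comparisons share their 100% libraries with each other, as do those of day 9.

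**Figure D1:**
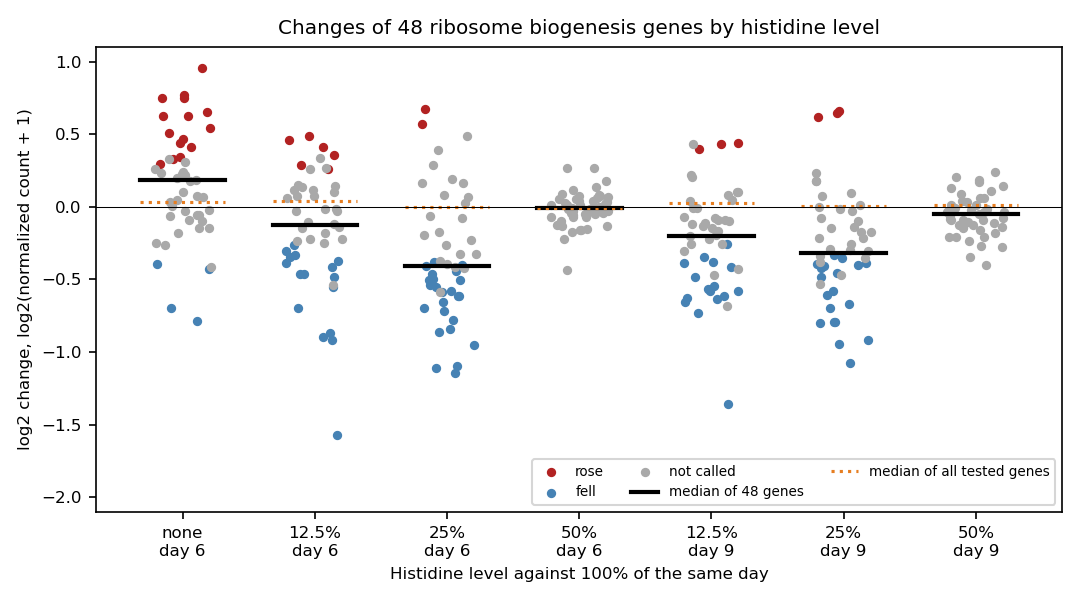
Log2 change of each of the 48 genes (points) at each histidine level against 100% of the same day, red for rose, blue for fell and grey for not called, with the median of the 48 (black bar) and of all tested genes (dotted). The median of the 48 is 0.18 without histidine, -0.13 at 12.5%, -0.41 at 25% and -0.01 at 50% on day 6.

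As a share of each library's total normalized counts, the summed level of the 48 genes on day 6 was also highest without histidine and lowest at 25%. It made up 0.655% to 0.674% of each library's total without histidine, 0.573% to 0.615% at 12.5%, 0.502% to 0.517% at 25%, 0.573% to 0.644% at 50% and 0.547% to 0.600% at 100% on day 6. In this share the no-histidine libraries lay above all others of that day and the 25% libraries below all others. The totals behind it differed, at 13.65, 14.96 and 14.54 M without histidine and 15.58, 15.44 and 15.32 M at 100%. In summed normalized counts the 25% libraries were still the lowest of day 6. The no-histidine libraries did not lie above all others there, and 50% replicate 2 was the highest. On day 9 the share was 0.610% to 0.642% at 12.5%, 0.543% to 0.624% at 25%, 0.631% to 0.675% at 50% and 0.625% to 0.750% at 100%. The 25% libraries lay below all of those at 50% and 100%, the nearest at 0.624% against 0.625%, while 12.5% overlapped with each other level of that day. NCL and NPM1 are the most abundant members and weigh most in these sums.

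**Figure D2:**
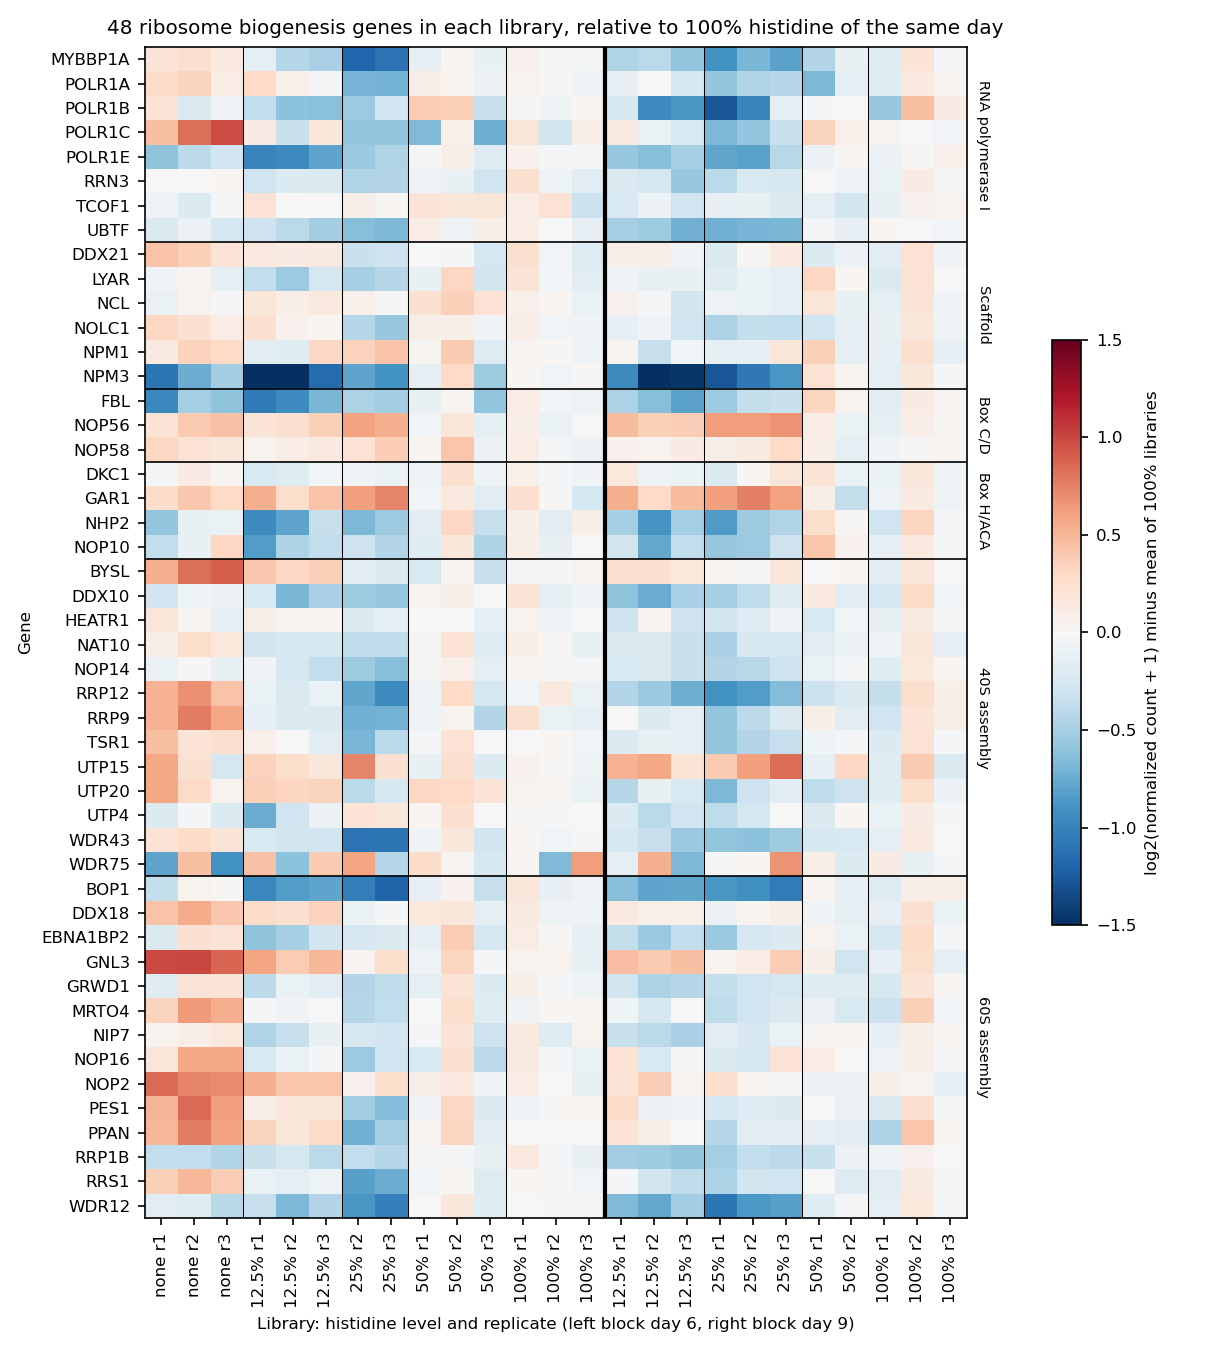
Each row is a gene, grouped by role, and each column a library (day 6 left of the thick line, day 9 right of it), coloured by log2(normalized count + 1) minus the mean of the 100% libraries of the same day. The 25% columns are mostly blue and the no-histidine columns hold most of the dark red cells, while NOP56 and GAR1 are red and NPM3 and FBL blue at every reduced level below 50%.

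Without histidine on day 6, 19 of the 48 genes changed against 100% (39.6%, against 29.8% of all tested genes). The 15 that rose (31.2%, against 13.3% of all tested genes) were mainly assembly factors: 8 of the 14 large subunit factors and 4 of the 13 small subunit factors, with no small subunit factor falling. The 4 that fell were NPM3, FBL, POLR1E and RRP1B (8.33%, against 16.5% of all tested genes). The median log2 change was 0.18 for the 48 genes and 0.03 for all tested genes. The tested genes include many with lower counts than the 48. With a filter of at least 50 in at least 2 libraries, 5413 of 12463 genes were called (2369 rose and 3044 fell). Of the 48, 20 were called at that filter (16 rose and 4 fell), so the share called was no higher than in all tested genes.

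Among the large subunit factors that rose, GNL3 was at 2008, 2029.5 and 1848 without histidine and 1052, 1048 and 937 at 100% (log2 change 0.96 ± 0.12 SE, adjusted p = 1.82e-06). NOP2, the methyltransferase that makes a 5-methylcytosine in 28S rRNA, had 1689, 1558 and 1532 without histidine and 1007, 935 and 865 at 100% (log2 change 0.77 ± 0.10 SE, adjusted p = 1.23e-06). PES1, of the PeBoW complex, had 2078, 2627 and 2237 without histidine and 1416, 1483 and 1492 at 100% (log2 change 0.65 ± 0.12 SE, adjusted p = 0.000227). In all 3 genes every no-histidine library lay above every 100% library. Bystin (BYSL), needed for 40S assembly, was at 991, 1205 and 1269 without histidine and 673, 669 and 705 at 100% (log2 change 0.75 ± 0.10 SE, adjusted p = 4.72e-06). POLR1C, a subunit shared by RNA polymerases I and III, was at 188, 244 and 273 without histidine and 157, 114 and 147 at 100% (log2 change 0.75 ± 0.20 SE, adjusted p = 0.00534). Both groups were again apart, although POLR1C is among the lowest members and its no-histidine libraries ranged widely. The other risers and their log2 changes were PPAN (0.63), RRP9 (0.62), RRP12 (0.54), MRTO4 (0.51), DDX18 (0.46), NOP16 (0.44), RRS1 (0.41), NOP56 (0.34), DDX21 (0.33) and TSR1 (0.30). Of these, PPAN and MRTO4 are large subunit factors, RRP9 and RRP12 small subunit factors, and DDX18 and DDX21 nucleolar RNA helicases.

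Of the genes that fell, NPM3, a nucleolar relative of nucleophosmin (chr10:101781325-101783413, minus strand), was at 271, 342 and 398 without histidine and 585, 556 and 581 at 100% (log2 change -0.78 ± 0.20 SE, adjusted p = 0.00453). FBL (fibrillarin) had 1890.1, 2605 and 2435 without histidine and 4009, 3610.2 and 3524 at 100% (log2 change -0.70 ± 0.14 SE, adjusted p = 0.000537). POLR1E, a subunit particular to RNA polymerase I, had 349, 405 and 435 without histidine and 554, 521 and 521 at 100% (log2 change -0.43 ± 0.11 SE, adjusted p = 0.00474). None of the no-histidine libraries reached a 100% library in these genes. RRP1B, a nucleolar protein of the large subunit pathway, was at 1688, 1693 and 1593 without histidine and 2412, 2130.0 and 2013 at 100% (log2 change -0.39 ± 0.08 SE, adjusted p = 0.00054). The groups did not overlap there either. When 1 of the 6 libraries was left out, DDX21 and NOP16 each lost the call in 4 of the 6 fits and TSR1 in 5 (adjusted p up to 0.175, 0.138 and 0.179). Without the keratin-high libraries, which leaves 1 library at 100%, 10 rose and 1 fell.

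**Figure D3:**
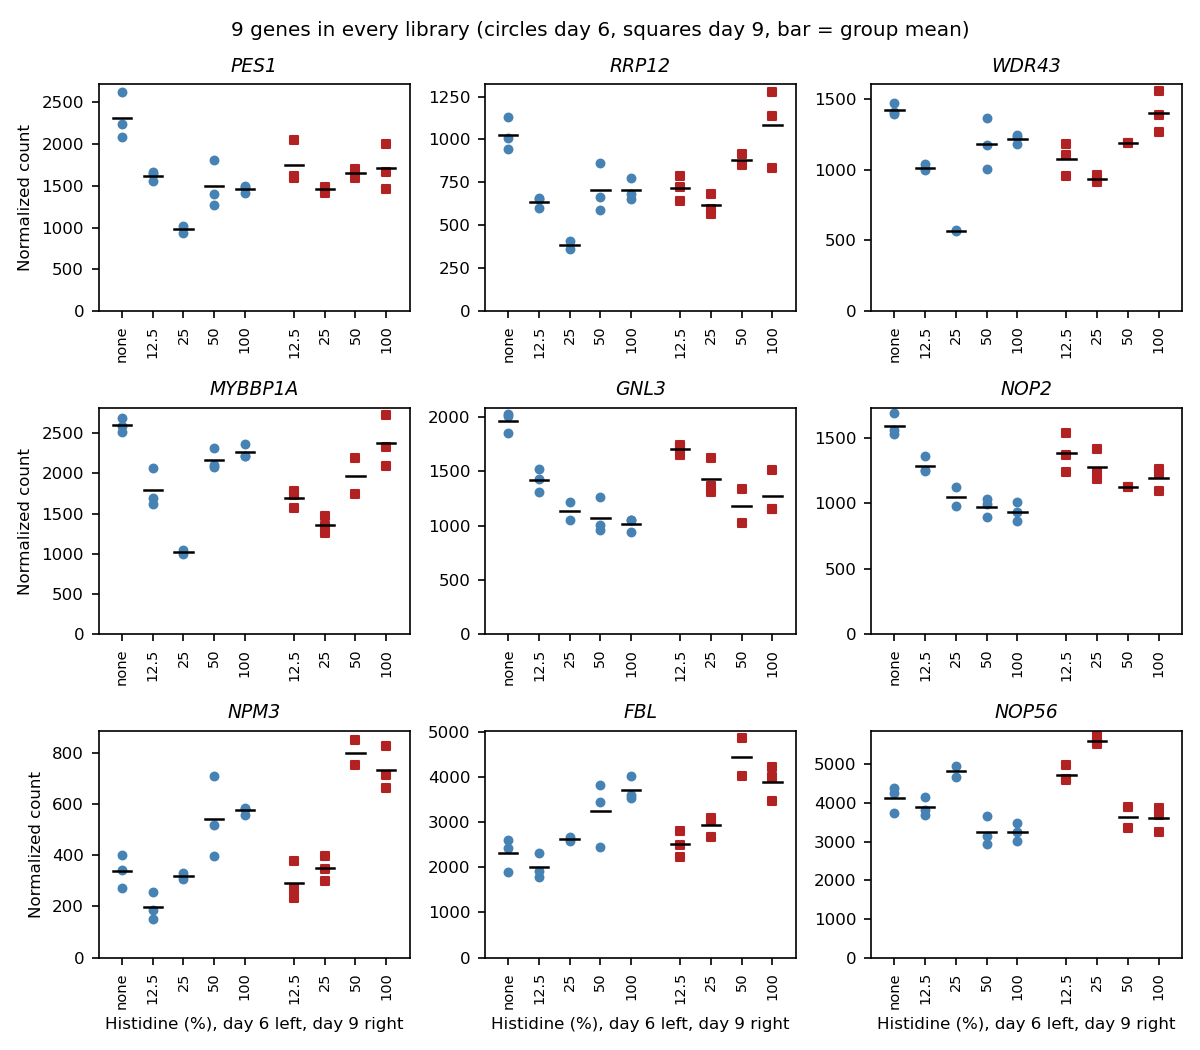
Normalized counts of 9 genes in every library by histidine level (circles day 6, squares day 9, bars group means; each axis starts at 0). PES1, RRP12, WDR43 and MYBBP1A are lowest at 25% and highest without histidine on day 6, GNL3 and NOP2 are highest without histidine, NPM3 and FBL are low at every level up to 25%, and NOP56 is highest at 25%.

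At 12.5% histidine on day 6, 22 of the 48 genes changed (45.8%, against 27% of all tested genes). Of these 16 fell (33.3%, against 15.3% of all tested genes) and 6 rose (12.5%, against 11.7%). The falls covered every role: 3 of 8 RNA polymerase I genes, 2 of 4 box H/ACA proteins, 5 of 14 large and 3 of 13 small subunit factors. Among the 6 that rose were GNL3, NOP2 and GAR1. The median log2 change was -0.13, against 0.04 over all tested genes. With a filter of at least 50 in at least 2 libraries, 24 of the 48 were called (18 fell and 6 rose). At that filter 4964 of 12463 tested genes were called (2932 fell and 2032 rose).

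NPM3 was at 151, 184 and 257 at 12.5%, against 585, 556 and 581 at 100% (log2 change -1.57 ± 0.20 SE, adjusted p = 5.01e-06). POLR1E had 267, 273 and 306 at 12.5% and 554, 521 and 521 at 100% (log2 change -0.92 ± 0.11 SE, adjusted p = 2.5e-06). FBL had 1779.5, 1927 and 2304 at 12.5% and 4009, 3610.2 and 3524 at 100% (log2 change -0.90 ± 0.14 SE, adjusted p = 5.71e-05). These 3 genes stood apart from 100% in every library, and NPM3 gave the lowest log2 change among the 48. BOP1, the PeBoW scaffold, was at 1689, 1842 and 1909 at 12.5% and 3715, 3042 and 3186 at 100% (log2 change -0.87 ± 0.12 SE, adjusted p = 8.88e-06). NHP2, a core box H/ACA protein, was at 609.8, 677 and 922 at 12.5% and 1247, 1040.0 and 1249 at 100% (log2 change -0.70 ± 0.18 SE, adjusted p = 0.00654). No library at 12.5% reached the 100% range in either gene. The other 11 that fell were NOP10 (-0.56), WDR12 (-0.49), DDX10 (-0.47), EBNA1BP2 (-0.46), UBTF (-0.42), LYAR (-0.39), UTP4 (-0.38), MYBBP1A (-0.35), RRP1B (-0.33), NIP7 (-0.30) and WDR43 (-0.26). They include UBTF, the HMG-box protein that holds active rDNA open, NOP10 of the box H/ACA core and WDR12 of the PeBoW complex.

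Of the 6 that rose, GNL3 was at 1518, 1313 and 1433 at 12.5% and 1052, 1048 and 937 at 100% (log2 change 0.49 ± 0.12 SE, adjusted p = 0.00432). NOP2 had 1359.9, 1251 and 1248 at 12.5% and 1007, 935 and 865 at 100% (log2 change 0.46 ± 0.10 SE, adjusted p = 0.000906). GAR1, the fourth core protein of box H/ACA RNPs, had 467, 384 and 429 at 12.5% and 377, 325 and 267 at 100% (log2 change 0.41 ± 0.13 SE, adjusted p = 0.0222). In all 3 the groups were apart, and GAR1 moved against its partners NHP2 and NOP10. BYSL was at 906, 846 and 874 at 12.5% and 673, 669 and 705 at 100% (log2 change 0.36 ± 0.10 SE, adjusted p = 0.0116). DDX18 was at 1867, 1814 and 1964 at 12.5% and 1692, 1462 and 1479 at 100% (log2 change 0.29 ± 0.10 SE, adjusted p = 0.031). NOP56, a core box C/D protein, rose by less (log2 change 0.26, adjusted p = 0.0371). Of the 22 calls, 11 held whichever library was left out, and the highest adjusted p of the others was DDX10 (0.0998), DDX18 (0.111), EBNA1BP2 (0.122), GAR1 (0.152), LYAR (0.171), MYBBP1A (0.0792), NIP7 (0.206), NOP10 (0.133), NOP56 (0.15), UTP4 (0.271) and WDR43 (0.126), with each of the 6 libraries ending at least 4 of them. Rescaling each library to its upper quartile instead, which moves the median of all tested genes to 0.17, gave 6 falls and 7 rises, and without the keratin-high libraries, which leaves 1 library at 100%, there were 5 and 4. The level of 5.8S rRNA was 74.8 to 88.2 at 12.5%, against 153 to 1181 at 100%, and with it as a covariate, chosen after seeing the data, 7 fell and 2 rose.

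On day 9 at 12.5%, 19 of the 48 genes changed (39.6%, against 20.8% of all tested genes). Of these 16 fell (33.3%, against 11.5% of all tested genes) and 3 rose (6.25%, against 9.35%), with a median of -0.20 against 0.03 over all tested genes. NPM3 again led. NPM3 was at 375, 231 and 265 at 12.5%, against 661, 824 and 713 at 100% (log2 change -1.36 ± 0.20 SE, adjusted p = 3.67e-05). BOP1 had 2325, 2089 and 2105 at 12.5% and 3156, 3866 and 3857 at 100% (log2 change -0.73 ± 0.12 SE, adjusted p = 7.81e-05). WDR12 had 415, 386 and 459 at 12.5% and 601, 735 and 649 at 100% (log2 change -0.65 ± 0.12 SE, adjusted p = 0.000297). In each of these 3 genes all libraries at 12.5% were below all at 100%. FBL was at 2795, 2500.2 and 2231 at 12.5% and 3473, 4224 and 3989 at 100% (log2 change -0.64 ± 0.14 SE, adjusted p = 0.0022). NHP2 was at 953, 727 and 941 at 12.5% and 1089, 1672 and 1325 at 100% (log2 change -0.63 ± 0.18 SE, adjusted p = 0.0164). The groups stayed apart in both, by a small gap in NHP2. The other 11 that fell were DDX10 (-0.61), UBTF (-0.58), RRP12 (-0.58), POLR1E (-0.57), RRP1B (-0.55), MYBBP1A (-0.48), NIP7 (-0.41), GRWD1 (-0.39), WDR43 (-0.38), RRN3 (-0.35) and NOP14 (-0.26). RRP12, which helps carry pre-40S particles out of the nucleus, and RRN3, which brings RNA polymerase I to its promoter, are among them.

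The 3 that rose on day 9 had risen on day 6. GAR1 was at 522, 441 and 495 at 12.5%, against 338, 392 and 343 at 100% (log2 change 0.44 ± 0.13 SE, adjusted p = 0.0183). GNL3 had 1739, 1650.3 and 1720.3 at 12.5% and 1154, 1516 and 1148 at 100% (log2 change 0.43 ± 0.12 SE, adjusted p = 0.0133). NOP56 had 4979, 4598 and 4617 at 12.5% and 3247, 3857 and 3687 at 100% (log2 change 0.40 ± 0.09 SE, adjusted p = 0.0028). Every library at 12.5% lay above those at 100% in all 3. Of the 19 calls, 12 held whichever library was left out, and the highest adjusted p of the others was GAR1 (0.0773), GNL3 (0.0739), GRWD1 (0.146), NHP2 (0.114), NOP14 (0.235), RRN3 (0.151) and WDR43 (0.0538), with each of the 6 libraries ending at least 2 of them. No library of this comparison was high in keratin. Of the 16 genes that fell at 12.5% on each day, 12 were shared (75% of each list): BOP1, DDX10, FBL, MYBBP1A, NHP2, NIP7, NPM3, POLR1E, RRP1B, UBTF, WDR12 and WDR43. These days share no library, and the overlap was not worked out over all tested genes. On day 6 the calls of DDX10, MYBBP1A, NIP7, RRP1B, WDR12 and WDR43 were lost with upper-quartile rescaling.

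At 25% histidine on day 6, with 2 libraries, 26 of the 48 genes changed (54.2%, against 13.7% of all tested genes). Of these, 24 fell (50.0%, against 6.92% of all tested genes) and 2 rose (4.17%, against 6.79%). Falls took in 5 of 8 RNA polymerase I genes, 7 of 13 small subunit and 7 of 14 large subunit factors. The median log2 change was -0.41, against 0.00 over all tested genes. MYBBP1A, a nucleolar protein that binds MYB and acts on rDNA transcription, was at 992 and 1053 at 25%, against 2369, 2213 and 2218 at 100% (log2 change -1.15 ± 0.12 SE, adjusted p = 8.68e-07). BOP1 had 1615 and 1441 at 25% and 3715, 3042 and 3186 at 100% (log2 change -1.11 ± 0.13 SE, adjusted p = 3.77e-06). WDR43 had 566 and 574 at 25% and 1245, 1180.0 and 1231 at 100% (log2 change -1.09 ± 0.11 SE, adjusted p = 5.69e-07). All 3 genes were far below the range of the 100% libraries. WDR12 was at 316 and 283 at 25% and 576, 573 and 584 at 100% (log2 change -0.95 ± 0.13 SE, adjusted p = 2.59e-05). The other 20 that fell were RRP12 (-0.86), NPM3 (-0.85), RRS1 (-0.78), RRP9 (-0.72), POLR1A (-0.70), UBTF (-0.66), PPAN (-0.62), NHP2 (-0.61), NOP14 (-0.59), PES1 (-0.58), DDX10 (-0.55), TSR1 (-0.54), POLR1E (-0.51), NOLC1 (-0.50), FBL (-0.50), LYAR (-0.46), RRN3 (-0.44), GRWD1 (-0.41), RRP1B (-0.40) and NAT10 (-0.38).

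Only GAR1 and NOP56 rose at 25% among the 48. GAR1 was at 489 and 529.6 at 25%, against 377, 325 and 267 at 100% (log2 change 0.67 ± 0.15 SE, adjusted p = 0.0029). NOP56 had 4949.6 and 4677 at 25% and 3479.9, 3024 and 3245 at 100% (log2 change 0.57 ± 0.10 SE, adjusted p = 0.000491). Neither overlapped with 100%. Of the 26 calls, 12 held whichever library was left out, and the highest adjusted p of the others was DDX10 (0.122), FBL (0.189), GAR1 (0.055), GRWD1 (0.228), LYAR (0.215), NAT10 (0.11), NHP2 (0.252), NPM3 (0.113), PES1 (0.0828), POLR1E (0.0952), PPAN (0.189), RRN3 (0.0852), RRP1B (0.0573) and TSR1 (0.106). Leaving out either 25% library left 15 calls (13 falls and 2 rises without replicate 2, 14 and 1 without replicate 3), and GAR1 then missed the threshold without replicate 3 (adjusted p = 0.055). Without the keratin-high libraries, which leaves 1 library at 100%, 8 fell and 2 rose, including BOP1 (-1.06), MYBBP1A (-1.12), WDR43 (-1.11) and WDR12 (-0.96).

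On day 9 at 25%, 22 of the 48 changed (45.8%, against 18.2% of all tested genes). Of these 19 fell (39.6%, against 8.76% of all tested genes) and 3 rose (6.25%, against 9.4%), with a median of -0.32 against 0.00 over all tested genes. NPM3 was at 300.4, 347 and 397 at 25%, against 661, 824 and 713 at 100% (log2 change -1.08 ± 0.20 SE, adjusted p = 0.000488). BOP1 had 1968, 1910.4 and 1742 at 25% and 3156, 3866 and 3857 at 100% (log2 change -0.95 ± 0.12 SE, adjusted p = 3.74e-06). WDR12 had 310.2, 364 and 375 at 25% and 601, 735 and 649 at 100% (log2 change -0.92 ± 0.12 SE, adjusted p = 5.89e-06). All 25% libraries were below all 100% libraries in these genes. MYBBP1A was at 1258, 1469.5 and 1351 at 25% and 2087, 2727 and 2321 at 100% (log2 change -0.80 ± 0.11 SE, adjusted p = 7.99e-06). GAR1, which rose, was at 547, 603 and 544 at 25% and 338, 392 and 343 at 100% (log2 change 0.66 ± 0.13 SE, adjusted p = 0.000871). NOP56 rose and was at 5559, 5525 and 5721 at 25% and 3247, 3857 and 3687 at 100% (log2 change 0.64 ± 0.09 SE, adjusted p = 2.2e-05). The groups were apart in these 3 as well. UTP15, a small subunit processome protein, also passed upward (log2 change 0.62, adjusted p = 0.032), but its groups overlapped and it missed the threshold in 4 of 6 fits with 1 library left out, those without 25% replicates 2 or 3 and without 100% replicates 1 or 3 (adjusted p up to 0.143).

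The remaining 15 that fell on day 9 at 25% were POLR1B (-0.80), RRP12 (-0.79), UBTF (-0.70), POLR1E (-0.67), NHP2 (-0.61), WDR43 (-0.58), POLR1A (-0.49), TSR1 (-0.46), RRP1B (-0.42), FBL (-0.41), RRP9 (-0.40), NOLC1 (-0.40), NOP14 (-0.39), RRS1 (-0.35) and NAT10 (-0.33). Of the 24 and 19 genes that fell at 25% on day 6 and day 9, 18 were the same (75% and 94.7% of each list), and GAR1 and NOP56 rose on both days. This overlap too was not worked out over all tested genes. Of the 22 day 9 calls, 15 held whichever library was left out, and the highest adjusted p of the others was FBL (0.176), NAT10 (0.117), NHP2 (0.142), POLR1B (0.202), RRP9 (0.225), RRS1 (0.0946) and UTP15 (0.143). Among the 3 day 9 libraries at 25%, replicates 1 and 3 were high in keratin. Without them, which leaves 1 library at 25%, 8 fell and 2 rose, NPM3 (-1.07), BOP1 (-0.92), WDR12 (-0.86) and MYBBP1A (-0.69) among them.

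At 50% histidine none of the 48 genes passed on either day. On day 6, 2 of the 48 had an unadjusted p under 0.05 and none of the 18799 tested genes passed (0%), against 695 unadjusted. On day 9, 1 of all tested genes passed (0.00532%), and 5 of the 48 had an unadjusted p under 0.05, which is a looser threshold. The log2 changes of the 48 genes lay between -0.44 and 0.27 on day 6 and between -0.40 and 0.24 on day 9, with medians of -0.01 and -0.05.

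**Figure D4:**
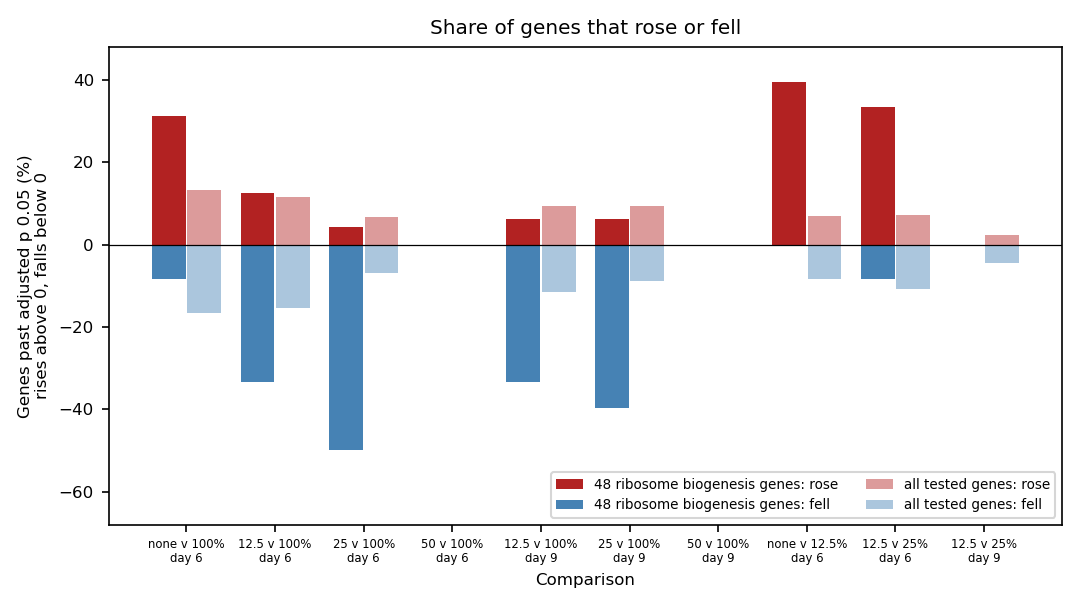
Percentage of the 48 genes (dark bars) and of all 18799 tested genes (pale bars) that rose (upward) or fell (downward) in each comparison, at an adjusted p under 0.05. In the 48 genes 33.3% fell at 12.5% on each day, 50.0% at 25% on day 6 and 39.6% at 25% on day 9, and 31.2% rose without histidine.

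Set directly against 12.5% on day 6, no histidine gave higher levels of 19 of the 48 genes and lower levels of none (39.6% changed, against 15.3% of all tested genes, of which 7% were higher and 8.26% lower). The median log2 change was 0.31, against -0.01 over all tested genes. This comparison holds no keratin-high library. RRP9 was at 932, 1100.1 and 968 without histidine, against 597, 560.2 and 556 at 12.5% (log2 change 0.80 ± 0.14 SE, adjusted p = 0.00029). BOP1 had 2573, 3432 and 3349 without histidine and 1689, 1842 and 1909 at 12.5% (log2 change 0.77 ± 0.12 SE, adjusted p = 5.92e-05). NPM3, although below 100% at both levels, had 271, 342 and 398 without histidine and 151, 184 and 257 at 12.5% (log2 change 0.79 ± 0.20 SE, adjusted p = 0.00964). Groups were apart in all 3. POLR1C was at 188, 244 and 273 without histidine and 151, 109 and 155 at 12.5% (log2 change 0.76 ± 0.20 SE, adjusted p = 0.0101). The other 15 were RRP12 (0.68), NOP16 (0.55), MYBBP1A (0.54), MRTO4 (0.54), EBNA1BP2 (0.53), RRS1 (0.51), PES1 (0.51), WDR43 (0.49), POLR1E (0.49), GNL3 (0.47), NAT10 (0.43), NIP7 (0.41), BYSL (0.39), TSR1 (0.32) and NOP2 (0.31). Of the 19 calls 9 held whichever library was left out, and 11 genes were called without no-histidine replicate 3 or without 12.5% replicate 2. NPM3 missed the threshold without no-histidine replicate 3 or 12.5% replicate 1 (adjusted p up to 0.0715), and POLR1C without no-histidine replicate 3 or 12.5% replicate 2 (adjusted p up to 0.0782).

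Between 12.5% and 25% on day 6, 16 of the 48 were higher at 12.5% and 4 were lower (41.7% changed, against 17.8% of all tested genes, of which 7.08% were higher and 10.7% lower). PPAN was at 647, 581 and 624 at 12.5%, against 309 and 361 at 25% (log2 change 0.88 ± 0.17 SE, adjusted p = 0.00113). WDR43 had 1042, 1009.6 and 997 at 12.5% and 566 and 574 at 25% (log2 change 0.83 ± 0.11 SE, adjusted p = 2.51e-05). POLR1A, the largest subunit of RNA polymerase I, had 2174, 1870.1 and 1731 at 12.5% and 1095 and 1085 at 25% (log2 change 0.81 ± 0.13 SE, adjusted p = 0.000165). Each 12.5% library was above both 25% libraries in these genes. MYBBP1A was at 2068, 1688 and 1618 at 12.5% and 992 and 1053 at 25% (log2 change 0.80 ± 0.12 SE, adjusted p = 8.4e-05). The 12 others that were higher at 12.5% were PES1 (0.73), RRP12 (0.72), RRS1 (0.67), UTP20 (0.66), NOLC1 (0.62), BYSL (0.55), RRP9 (0.54), TSR1 (0.52), WDR12 (0.46), DDX21 (0.46), NOP14 (0.36) and DDX18 (0.35). The 4 that were lower were NPM3 (-0.73), UTP4 (-0.56), POLR1E (-0.41) and NOP56 (-0.31). All 4 lost the call without 12.5% replicate 1 or without either 25% library, and also after upper-quartile rescaling, which gave 23 rises and no fall. The count was 12 without 12.5% replicate 1, 9 without 25% replicate 2 and 10 without 25% replicate 3, and 8 of the 20 calls held in every such fit. On day 9 none of the 48 passed between 12.5% and 25%, against 6.82% of all tested genes that passed. Of the 48, 11 had an unadjusted p under 0.05, a looser threshold that is not to be set against that share.

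Several genes define the pathway and are given here whatever their change. POLR1A, the catalytic subunit, was at 2152, 2224 and 1919.9 without histidine, 2174, 1870.1 and 1731 at 12.5%, 1095 and 1085 at 25%, 1884, 1825 and 1663 at 50%, and 1842, 1792 and 1684 at 100% on day 6. Only at 25% did it fall against 100% (log2 change -0.70 ± 0.13 SE, adjusted p = 0.000596), and it fell there on day 9 too (log2 change -0.49 ± 0.12 SE, adjusted p = 0.0039). POLR1B, the second largest subunit, was at 373, 276 and 309 without histidine, 248, 211 and 207 at 12.5%, 221 and 263 at 25%, 419, 414 and 255 at 50%, and 326, 309 and 332 at 100% on day 6. It passed in 1 comparison, at 25% on day 9 (log2 change -0.80, adjusted p = 0.0334), where 193, 239 and 428 at 25% overlapped with 316, 645 and 510.1 at 100%, and it missed the threshold without 25% replicate 1 or 2 or 100% replicate 2 or 3 (adjusted p up to 0.202). UBTF was at 4238, 4633 and 4140.5 without histidine, 3961, 3704 and 3420.3 at 12.5%, 3151 and 3091 at 25%, 5337, 4728 and 5260.0 at 50%, and 5306, 4959 and 4529 at 100% on day 6. It fell at 12.5% and at 25% on day 6 (log2 changes -0.42 and -0.66) and on day 9 (-0.58 and -0.70, adjusted p = 1.26e-05 and 1.27e-06), and its no-histidine change was -0.18 (adjusted p = 0.0863).

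RRN3 was at 916, 916 and 934 without histidine, 746, 797 and 790.0 at 12.5%, 673 and 674 at 25%, 868, 851 and 744 at 50%, and 1079, 877 and 814 at 100% on day 6. It fell at 25% on day 6 (log2 change -0.44 ± 0.12 SE, adjusted p = 0.0122) and at 12.5% on day 9, and its change without histidine was 0.01 (adjusted p = 0.968). The expressed pseudogene RRN3P3 (147 to 334 per library) could share reads with it. TCOF1, the treacle protein that works with UBTF on rDNA, was at 2019, 1851 and 2101 without histidine, 2473, 2139.5 and 2119 at 12.5%, 2272 and 2199 at 25%, 2431, 2389.8 and 2415 at 50%, and 2303, 2468 and 1699 at 100% on day 6. Each reduced level overlapped with 100% on day 6, and it passed in none of the 13 comparisons.

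NCL (nucleolin) was the most abundant of the 48, at 12956, 14478 and 13601 without histidine, 15792, 14952 and 15441 at 12.5%, 14678 and 13706 at 25%, 16261, 17897 and 16123 at 50%, and 14673, 14157 and 12987 at 100% on day 6. NPM1 (nucleophosmin) came next, at 13839, 15965 and 15565 without histidine, 11211, 11123 and 15645 at 12.5%, 16062 and 17006 at 25%, 12975, 16552 and 11069 at 50%, and 13021, 12736 and 12091 at 100%. Neither passed in any comparison, with log2 changes against 100% on day 6 of -0.03, 0.14, 0.03 and 0.27 for NCL and 0.26, -0.01, 0.39 and 0.08 for NPM1 without histidine and at 12.5%, 25% and 50%. Processed pseudogenes of NPM1 are also in the table, at low levels. NPM3, of the same family, fell at every level up to 25% on both days, a call that was lost at 25% on day 6 without either 25% library (adjusted p up to 0.113).

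Core snoRNP proteins moved in opposite directions. In the box C/D group FBL fell and NOP56 rose in all 5 comparisons of no histidine, 12.5% and 25% with 100%, while NOP58 passed in none. The FBL calls at 25% were lost whichever library was left out on day 6, and in 5 of 6 such fits on day 9 (it held without 100% replicate 1). NOP56 was at 3736, 4256 and 4393 without histidine, 3696, 3822 and 4161 at 12.5%, 4949.6 and 4677 at 25%, 3155, 3666 and 2924 at 50%, and 3479.9, 3024 and 3245 at 100% on day 6. Its highest libraries were those at 25%, and without histidine its log2 change was 0.34 (adjusted p = 0.0057). In the box H/ACA group NHP2 fell and GAR1 rose at 12.5% and 25% on both days, while the pseudouridine synthase DKC1 was at 2218, 2430.4 and 2279 without histidine, 1913, 1967 and 2181 at 12.5%, 2155 and 2081 at 25%, 2126, 2648 and 2121 at 50%, and 2362, 2199.8 and 2156 at 100% on day 6 and passed in none. GAR1 had a log2 change of 0.33 without histidine, short of the threshold (adjusted p = 0.0628). With 1 library left out, NHP2 at 25% lost its call in 4 of 5 fits on day 6 and 3 of 6 on day 9. At 12.5% on day 9 NHP2 lost it in 2 of 6. GAR1 lost its call at 12.5% in 2 of 6 fits on day 6 and 4 of 6 on day 9, and at 25% on day 6 in 1 of 5. NOP56 lost its call at 12.5% on day 6 in 4 of 6. The 7 genes that passed in none of the 13 comparisons were TCOF1, NCL, NPM1, NOP58, DKC1, WDR75 and HEATR1.

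In the PeBoW complex PES1 rose without histidine, while BOP1 and WDR12 did not pass. BOP1 was at 2573, 3432 and 3349 without histidine, 1689, 1842 and 1909 at 12.5%, 1615 and 1441 at 25%, 3041, 3447 and 2592 at 50%, and 3715, 3042 and 3186 at 100% on day 6, so that it was low at 12.5% and 25% and its no-histidine change was -0.09 (adjusted p = 0.598). PES1 was at 2078, 2627 and 2237 without histidine, 1556, 1639.7 and 1666 at 12.5%, 1019 and 935 at 25%, 1406, 1808 and 1270.4 at 50%, and 1416, 1483 and 1492 at 100%. It rose without histidine, had a log2 change of 0.15 at 12.5% (adjusted p = 0.417) and fell at 25% (log2 change -0.58 ± 0.14 SE, adjusted p = 0.00517). WDR12 was at 517, 509 and 433 without histidine, 453, 362 and 427 at 12.5%, 316 and 283 at 25%, 578, 651 and 509 at 50%, and 576, 573 and 584 at 100%. It fell at 12.5% and 25% on both days, and its no-histidine change was -0.25 (adjusted p = 0.113).

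Across the 5 comparisons of no histidine, 12.5% and 25% with 100%, 6 genes were called in both directions: PES1, PPAN, RRP12, RRP9, RRS1 and TSR1, each up without histidine and down at 25%. The rise of TSR1 was lost in 5 of 6 fits that left out 1 library (adjusted p up to 0.179) and with upper-quartile rescaling (adjusted p = 0.069). The falls at 25% were lost without 25% replicate 3 for PES1 and without 25% replicate 2 for PPAN and TSR1. RRP12 was at 1006, 1129 and 941 without histidine, 657, 602 and 653 at 12.5%, 409 and 364 at 25%, 667, 864 and 586 at 50%, and 682, 775 and 654 at 100% on day 6. RRS1, which loads the 5S RNP onto pre-60S particles, was at 930.2, 1032 and 944 without histidine, 681, 658 and 693 at 12.5%, 413 and 435 at 25%, 706, 740.4 and 637 at 50%, and 744, 735 and 705 at 100%. Both were lowest at 25% and highest without histidine, with no overlap between those levels and 100%. PPAN can share reads with the readthrough transcript PPAN-P2RY11 (226 to 561 per library), so its level is uncertain.

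MYC itself, the regulator of this pathway, was at 14174, 16061 and 16342 without histidine, 13216, 13569.7 and 13257 at 12.5%, 11197 and 10589 at 25%, 14019.5, 14266 and 13429 at 50%, and 17231, 14638 and 15447 at 100% on day 6. It fell at 25% (log2 change -0.53 ± 0.09 SE, adjusted p = 0.000201) and, by less, at 12.5% (log2 change -0.24 ± 0.08 SE, adjusted p = 0.0272), and its change without histidine was -0.02 (adjusted p = 0.871). The call at 12.5% was lost in 5 of 6 fits that left out 1 library (adjusted p up to 0.162; it held without 100% replicate 2), without the keratin-high libraries (adjusted p = 0.254) and with upper-quartile rescaling (adjusted p = 0.435). On day 9 MYC was at 13036, 12002 and 11214 at 12.5%, 9209, 10304 and 10304 at 25%, 10108 and 10625 at 50%, and 11348, 10868 and 11016 at 100%. It passed against 100% at no level of day 9, and at 12.5% it was higher than at 25% (log2 change 0.28, adjusted p = 0.0307), a call lost without 12.5% replicates 1 or 2 or any 25% library (adjusted p up to 0.141) and without the keratin-high libraries (adjusted p = 0.465). On day 6 it was likewise higher at 12.5% than at 25% (log2 change 0.29, adjusted p = 0.0231), which was lost without 12.5% replicates 1 or 2 or either 25% library (adjusted p up to 0.173).

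Genes with and without the CACGTG motif shown above are described by counts alone, which stand beside 13.3% of all tested genes rising and 16.5% falling without histidine, 11.7% and 15.3% at 12.5% on day 6, and 6.79% and 6.92% at 25% on day 6. Without histidine 7 of the 18 with the motif rose and 1 fell, with a median log2 change of 0.27, against 5 rises, 1 fall and a median of 0.04 in the 21 whose window lacks it and 3 rises, 2 falls and a median of 0.22 in the 9 with no window. At 25% on day 6, 1 of the 18 rose and 8 fell (median -0.38), against 1 rise, 10 falls and a median of -0.42 in the 21 and no rise, 6 falls and a median of -0.50 in the 9. At 12.5% on day 6, 4 rose and 7 fell (median -0.20), against 1 rise and 6 falls in the 21 (median -0.12) and 1 rise and 3 falls in the 9 (median -0.10). On day 9 at 12.5%, 2 of the 18 rose and 4 fell, against 1 rise and 8 falls in the 21 and no rise and 4 falls in the 9 (9.35% and 11.5% of all tested genes). At 25% on day 9, 1 of the 18 rose and 6 fell, against 2 rises and 7 falls in the 21 and no rise and 6 falls in the 9 (9.4% and 8.76% of all tested genes). Of the 8 genes printed, FBL fell in all 5 comparisons of no histidine, 12.5% and 25% with 100%. GNL3, PES1, RRP9 and MRTO4 rose without histidine, and GNL3 also rose at 12.5% on both days. PES1 fell at 25% on day 6 and RRP9 at 25% on both days. WDR43 fell at 12.5% and 25% on both days, NAT10 at 25% on both days and UTP4 at 12.5% on day 6.

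Between days, at 100% histidine, all 48 genes had a log2 change above 0 on day 9 against day 6 (0.06 to 0.72, median 0.23), as had 50.3% of all tested genes (median 0.00). With upper-quartile rescaling 39 of the 48 were above 0 (-0.10 to 0.57, median 0.07), against 28.8% of all tested genes (median -0.15), and with the keratin covariate 47 were. On the values as deposited 2 passed (4.17%, against 2.17% of all tested genes, 1.1% upward and 1.07% downward). RRP12 was at 834, 1274 and 1135 on day 9, against 682, 775 and 654 on day 6 (log2 change 0.60 ± 0.14 SE, adjusted p = 0.0241). UTP20, a protein of the small subunit processome, was at 566, 774 and 605 on day 9 and 433, 429 and 389 on day 6 (log2 change 0.62 ± 0.14 SE, adjusted p = 0.0173). The days did not overlap in either gene. Both calls were lost without day 9 replicate 2 or day 6 replicate 3, RRP12 also without day 6 replicate 1 or day 9 replicate 3 and UTP20 without day 6 replicate 2 (adjusted p up to 0.167 and 0.126), and neither upper-quartile rescaling nor the fit without the keratin-high libraries gave a call. MYC went the other way, at 11348, 10868 and 11016 on day 9 against 17231, 14638 and 15447 on day 6 (log2 change -0.51 ± 0.08 SE, adjusted p = 0.000955), a call lost without the keratin-high libraries (log2 change -0.48, adjusted p = 0.119).

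Whether the response to histidine differed between days 6 and 9 was tested as the difference of the changes. None of the 48 genes passed at 12.5%, against 0.0638% of all tested genes, or at 25%, against 0.00532%. At each level 4 of the 48 had an unadjusted p under 0.05, a looser threshold that is not to be set against those shares. The log2 changes of the 48 genes on day 6 and day 9 had the same sign for 41 genes at 12.5% and 42 at 25%, and no gene was called in opposite directions. Their correlation across genes was 0.896 at 12.5% and 0.875 at 25% (Pearson's r over 48 genes, which are not independent replicates, and all points share the libraries of their day). Signs and correlation were not worked out over all tested genes, so whether the 48 differ from them here is unknown.

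**Figure D5:**
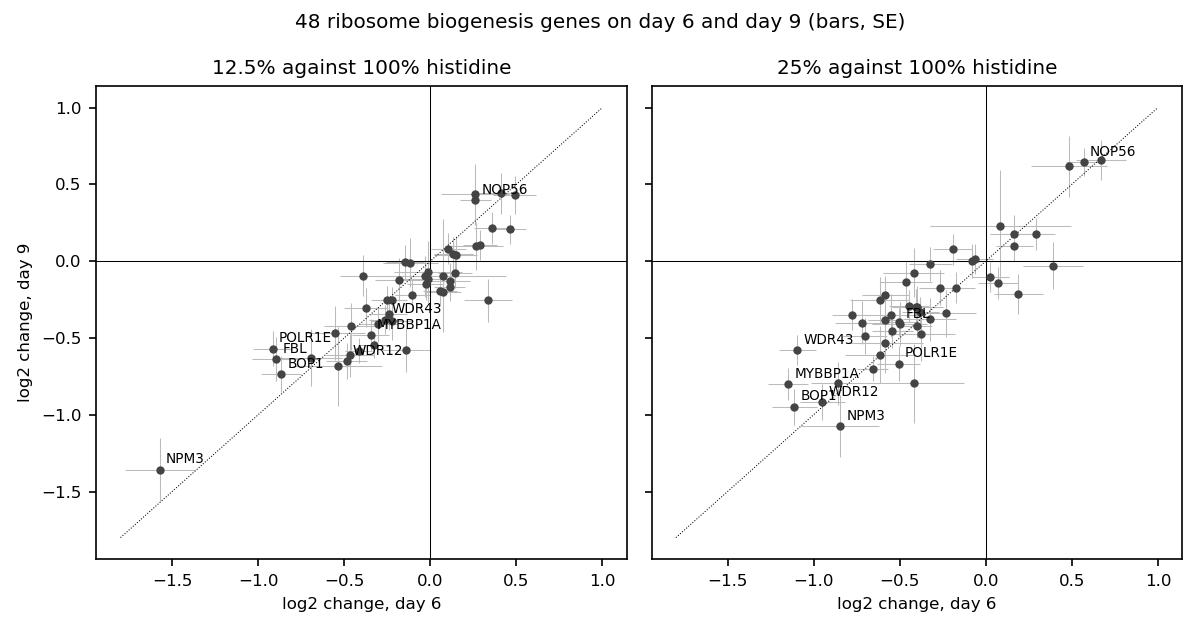
Log2 change of each of the 48 genes against 100% on day 6 (horizontal) and on day 9 (vertical) at 12.5% (left) and 25% (right), with SE bars and the line of equal change (dotted). NPM3 lies farthest down at 12.5% (-1.57 on day 6 and -1.36 on day 9), and at 25% MYBBP1A, BOP1 and WDR43 lie above the line of equal change, with larger falls on day 6.

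The wider pathway, 143 other ribosome biogenesis genes that were tested, is given by its counts. Without histidine 40 rose and 14 fell (37.8% changed, against 29.8% of all tested genes), at 12.5% 18 rose and 33 fell on day 6 (35.7%, against 27%) and 16 rose and 29 fell on day 9 (31.5%, against 20.8%), and at 25% 14 rose and 25 fell on day 6 (27.3%, against 13.7%). Their median log2 changes were 0.11, -0.06, -0.04 and -0.07. All tested genes include many with low counts. With a filter of at least 50 in at least 2 libraries, 5413 of 12463 tested genes were called without histidine. At that filter 4964 were called at 12.5% on day 6, 4007 at 12.5% on day 9 and 2889 at 25% on day 6. The wider list was not counted at that filter. Without histidine the largest rises were POLR2L (0.88), PNO1 (0.78), UTP23 (0.77) and POLR1G (0.75) and the largest falls EXOSC9 (-1.15), EXOSC7 (-0.78), TMA16 (-0.74) and IMP4 (-0.67). POLR2L is a small subunit shared by the nuclear RNA polymerases, POLR1G belongs to RNA polymerase I, PNO1 and UTP23 act in small subunit assembly, and the EXOSC genes encode the RNA exosome, which trims pre-rRNA.

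At 12.5% on day 6 the largest falls of the wider list were TMA16 (-1.13), EXOSC5 (-1.06), IMP4 (-1.001) and EXOSC7 (-0.99) and the largest rises DDX52 (0.73), RIOK2 (0.56), ESF1 (0.52) and TTF1 (0.48). On day 9 they were IMP4 (-1.27), EXOSC7 (-1.05), NOC2L (-0.84) and NUFIP1 (-0.80) and UTP23 (0.54), TTF1 (0.47), ESF1 (0.43) and GTPBP4 (0.42). IMP4, a U3 snoRNP protein, and EXOSC7 are in all 3 lists of falls, and 7 of the 15 exosome and related genes fell at 12.5% on day 6, with none rising, where 15.3% of all tested genes fell and 11.7% rose. Among the 55 other large subunit factors 20 rose and 3 fell without histidine, against 8 and 12 at 12.5% on day 6, and among the 48 other small subunit factors 17 rose and 4 fell without histidine, against 9 and 7 at 12.5%. Of all tested genes 13.3% rose and 16.5% fell without histidine.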

How the data were processed

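Strand-specific RNA-seq libraries of DND-41 cells, per the labels' protocols, were deposited as 1 table of signal values. These are normalized counts that the authors derived with kallisto 0.50.1 and DESeq2 1.44.0 for GRCh38; the submitters' processing notes list FastQC 0.11.9 too. Neither the annotation release nor the strand setting of the counting is given in the sources used here. Near-identical copies share reads in such quantification. Whole reads could not be recovered, because only 37.8% to 76.2% of low values (under 20) came within 0.05 of whole multiples of a step, and no count test was run.

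The 18799 of 31919 genes with 10 or more normalized counts in 2 or more libraries were tested with limma 3.58.1 (R 4.3.3), on log2 of the normalized count plus 1, using a variance trend, a mean for each of the 9 groups and 16 residual degrees of freedom. P-values are two-sided and Benjamini-Hochberg adjusted over all tested genes of a comparison. The procedure was tested on simulated data with independent normal noise in each gene. The simulated libraries had no shared keratin, 5.8S rRNA or scaling differences, so that test does not cover them. The members, the wider list and the tests were chosen with earlier results of these data known. Every member that passed without histidine or at 12.5% is named, with full values for the 5 largest changes each way there and for up to 4 each way in other comparisons. NCL, NPM1, FBL, DKC1, POLR1A, POLR1B, RRN3, UBTF, NOP56, BOP1, TCOF1 and MYC are given whatever their values, and other members in the text were chosen after their values were seen. Promoter windows are from RefSeq (GRCh38.p14) and gene positions from GENCODE 29 (GRCh38). The wider list has 145 genes, 143 of them in the table. Figures were drawn with matplotlib 3.10.9. Alternatives changed the pseudocount, the filter, the scaling, the variance trend, the library weights, the groups fitted and the libraries kept, or added a replicate block or a keratin covariate. A 5.8S rRNA covariate was added after seeing the data.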

Additional observations from a re-analysis of the deposited data

How the results depend on the processing

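Counts are of the 48 genes called. Leaving out each library gave 16 to 19 without histidine (17 without no-histidine replicate 1, whose day labels differ), 14 to 18 at 12.5% and 15 to 24 at 25% on day 6, 14 to 20 at 12.5% and 16 to 26 at 25% on day 9, 11 to 20 for no histidine against 12.5%, 9 to 22 for 12.5% against 25% on day 6, and 0 to 5 for day 9 against day 6 at 100%. A group left with 1 library is assumed to vary like the others. No call changed direction in any alternative. Of the 149 calls of these genes, 31 were lost with upper-quartile rescaling, 56 without the keratin-high libraries, 31 with the 5.8S rRNA covariate, 25 without the mean trend and at most 21 in each other alternative that keeps all libraries. Without the keratin-high libraries the counts were 11 without histidine, 9 at 12.5% on day 6, 10 at 25% on each day and 0 for day 9 against day 6. With the keratin covariate 17 were called at 25% on day 6. The filter of at least 50 gave 26 at 25% on day 6, against 2889 of 12463 tested genes. On day 9 it gave 23 at 12.5%, against 4007, and 26 at 25%, against 3632. Upper-quartile rescaling gave 13 at 12.5% on day 6 (6 falls and 7 rises, against 16 and 6) and 0 between days. On day 9 it gave 15 at 12.5% and 17 at 25%. The 5.8S rRNA covariate gave 9 at 12.5% on day 6, where 5.8S rRNA was at 74.8 to 88.2 normalized counts, against 153 to 1181 at 100%, and 4 between days. Library weights called 1 gene at 50% on day 6 and 8 between days, and no mean trend 1 and a filter of at least 50 5 between days. Between 12.5% and 25% on day 9, where none passed, the filter of at least 50 gave 2, quantile normalization 4, library weights 2, the fit on the compared groups 1 and the 5.8S rRNA covariate 1. The cause of these differences was not tested.

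Replicate numbers showed no pairing of libraries in deviations from the group means over all tested genes. Of 92 same-number pairs none had a correlation over 0.1 (-0.128 to 0.0819). Of the 25 libraries, 9 correlated best with those of their own number. Pairing that acts on a small set of genes could go unseen in such a correlation. With a replicate block 18 genes were called without histidine, 22 at 12.5% and 25 at 25% on day 6, 21 at 12.5% and 20 at 25% on day 9, 19 for no histidine against 12.5%, 18 for 12.5% against 25% on day 6, and 4 between days.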

Other observations

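Libraries of 1 group were far apart for 1 member that passed in no comparison. WDR75, a small subunit processome protein, was at 231, 548 and 213 without histidine, 542, 260.4 and 525 at 12.5%, 604 and 297 at 25%, 482, 410.4 and 337 at 50%, and 409.9, 252 and 618 at 100% on day 6, and at 566, 902 and 391 at 12.5%, 618, 638 and 995 at 25%, 671 and 540.1 at 50%, and 678, 579.6 and 619 at 100% on day 9. Its groups overlap on both days. HEATR1, another protein of the same complex, was at 1503, 1358 and 1204 without histidine, 1418, 1357 and 1353 at 12.5%, 1151 and 1191 at 25%, 1327, 1333 and 1202 at 50%, and 1367, 1276 and 1325 at 100% on day 6, where its 25% libraries were the lowest of the day. NOP58, a core box C/D protein, was at 1939, 1831 and 1762 without histidine, 1626, 1699 and 1741 at 12.5%, 1819.9 and 2021 at 25%, 1606, 2087 and 1476 at 50%, and 1697, 1545 and 1475 at 100% on day 6, and its 100% libraries were below both of those at 25%.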
